A study of Mus musculus with 16 samples.

Results

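Mitochondrially encoded transcripts are described here in mouse duodenal eosinophils collected at 2 times of day. The genes were every gene whose symbol starts with mt- in the 2 tables that the authors deposited. They were thus selected on the deposited s-value of the ZT15-against-ZT3 contrast, which every listed gene has under 0.05. This gave 6 genes, namely mt-Cytb, mt-Co1, mt-Nd1, mt-Nd2, mt-Nd4 and mt-Rnr2, of 1413 genes listed in either table. The mitochondrial genome carries 37 annotated genes (13 mRNAs, 2 rRNAs and 22 tRNAs), and the other 31 are in neither table, so they were not analysed here.

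Eosinophils, granulocytes of allergic and intestinal immunity, had been sorted from the lamina propria, the connective tissue beneath the gut epithelium, of the duodenum. The 16 libraries formed 4 groups of 4: CD11c-low cells at ZT15 (PM), CD11c-low cells at ZT3 (AM), CD11c-high cells at ZT15 and CD11c-high cells at ZT3. CD11c is an integrin chain on the cell surface, and ZT (zeitgeber time) counts hours after lights on. Each library was made from the polyadenylated RNA of 1000 sorted cells. The labels used here give no strain, genotype, age or sex, and do not say whether libraries of a group came from separate mice, so the errors may reflect technical spread alone.

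The respiratory chain is built from subunits of both genomes. Mitochondrial DNA encodes core membrane subunits of complexes I, III, IV and V and the rRNAs of the mitochondrial ribosome, whereas complex II and all other subunits come from nuclear genes. The genes of the heavy strand are transcribed as long precursors in which the rRNAs come before the mRNAs, and the tRNAs that lie between them are cut out to release the other RNAs. The mRNAs then receive poly(A) tails, which complete the stop codon of some of them, while the rRNAs carry very short tails. Granulocytes draw much of their energy from glycolysis, and eosinophils hold more mitochondria than neutrophils do.

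Because the libraries were made from polyadenylated RNA, the 3′ ends of the annotated transcripts are shown, in genome order and 5′ to 3′. The last 30 bases of each are given without the tail, from the GENCODE M21 transcripts. Capitals mark the stop codon or, where the transcript ends inside it, its only base.
mt-Rnr2: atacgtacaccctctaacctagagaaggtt
mt-Nd1: tttacagcgggagtaccaccatacataTAG
mt-Nd2: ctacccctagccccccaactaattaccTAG
mt-Co1: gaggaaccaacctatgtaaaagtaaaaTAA
mt-Nd4: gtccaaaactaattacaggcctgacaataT
mt-Cytb: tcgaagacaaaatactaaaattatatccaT
The annotated mt-Nd1, mt-Nd2 and mt-Co1 transcripts end in a complete stop codon. Those of mt-Nd4 and mt-Cytb end in a lone T, which only a tail of A can turn into a stop codon. The rRNA has no reading frame, so nothing is marked in it.

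In CD11c-low eosinophils all 5 listed mitochondrial mRNAs rose at ZT15 and the listed rRNA, mt-Rnr2, fell. In the authors' deposited table the mRNAs had log2 fold changes (ZT15 over ZT3) from 0.34 to 1.05, and mt-Rnr2 had -0.27. A gene was counted as changed where it is in the table, that is, at an s-value under 0.05. The s-value is the share of wrong signs expected among all genes ranked as high or higher. For comparison, 52.2% of all genes listed in the CD11c-low table were higher at ZT15 and 47.8% were lower. At an s-value under 0.01, which 38.7% of the listed genes met, the 5 mRNAs remained. At an own false sign rate (the chance that the sign of that gene itself is wrong) under 0.05, which 52.7% of the listed genes met, all 6 remained. Since the genes were chosen for being in these tables, their changes are a description and no test of them was made. The tables hold no value of any library, so neither the levels at each time nor the overlap of the groups can be given. In sorted bulk samples, less of an RNA per cell and fewer cells that hold it cannot be told apart.

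mt-Cytb (ENSMUSG00000064370.1) encodes cytochrome b, the core of complex III that passes electrons from ubiquinol towards cytochrome c. It had a log2 fold change of 1.05 ± 0.18 (posterior SD, s-value 2.39e-09) in the authors' deposited table. This is a fold of 2.07, with a 95% interval of 0.69 to 1.41 in log2. Among the 1340 listed genes it ranked 13 by log2 fold change, counted from the highest, and 11 by s-value, counted from the smallest.

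The next 3 mRNAs had almost the same change as each other. mt-Co1 (ENSMUSG00000064351.1), which encodes the catalytic subunit of cytochrome c oxidase (complex IV), had 0.66 ± 0.13 (s-value 3.40e-08) in the authors' deposited table. mt-Nd4 (ENSMUSG00000064363.1) encodes a proton-pumping subunit of the membrane arm of complex I and had 0.65 ± 0.13 (s-value 4.41e-08) in the authors' deposited table. mt-Nd2 (ENSMUSG00000064345.1), another subunit of that arm, had 0.66 ± 0.18 (s-value 1.11e-05) in the authors' deposited table. These are folds of 1.58 for mt-Co1, 1.57 for mt-Nd4 and 1.58 for mt-Nd2.

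mt-Nd1 (ENSMUSG00000064341.1), which encodes the complex I subunit where the membrane arm meets the ubiquinone site, had the smallest increase. Its log2 fold change was 0.34 ± 0.12 (s-value 0.000716) in the authors' deposited table, a fold of 1.26. This value changed with centring, to 0.13 after subtracting the median of all listed genes without immunoglobulin segments. It was 0.51 after subtracting that of the listed nuclear genes of the respiratory chain. Both medians are of called genes only, the smallest of which is 0.136 in absolute log2 fold change. They therefore do not measure an offset between libraries. The point estimate of mt-Nd1 was lower than those of the other complex I subunits, mt-Nd2 and mt-Nd4.

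mt-Rnr2 (ENSMUSG00000064339.1) is the rRNA of the large subunit of the mitochondrial ribosome and the only member in both tables. As polyadenylated RNA was sequenced, its values are not those of total rRNA. In CD11c-low cells its log2 fold change was -0.27 ± 0.15 (s-value 0.0107) in the authors' deposited table, a fold of 0.831. With the same centrings it was -0.47 and -0.09. The 95% interval, -0.55 to 0.02, reached past 0, which those of the 5 mRNAs did not. Of the members it lay nearest to the threshold for being listed, and no value of a mitochondrial gene outside that threshold is known here.

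**Figure D1:**
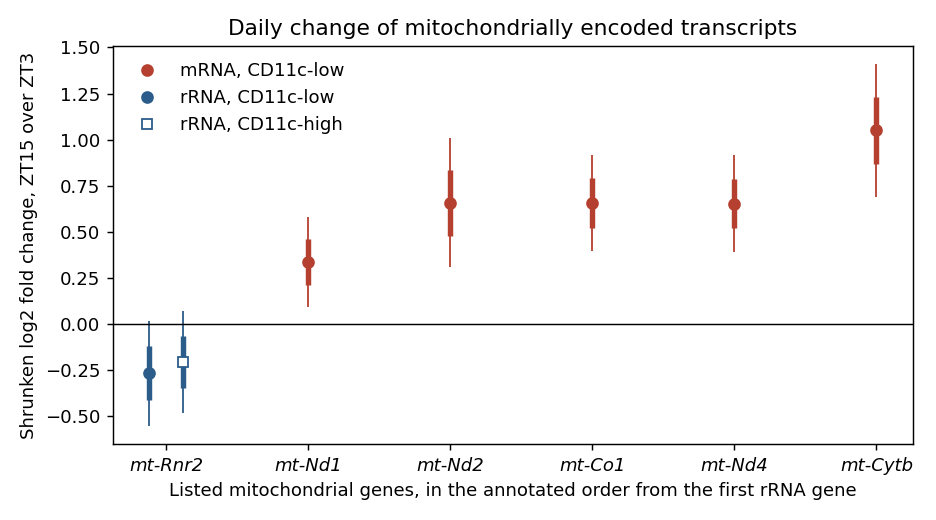
Shrunken log2 fold change, ZT15 over ZT3 (vertical axis), of the 6 listed mitochondrial genes in their annotated order (horizontal axis); thick bars are ± 1 posterior SD and thin bars ± 1.96 SD, from 4 against 4 libraries. In CD11c-low cells the mRNAs lie between 0.34 (mt-Nd1) and 1.05 (mt-Cytb) and the rRNA mt-Rnr2 at -0.27, and the open square gives mt-Rnr2 at -0.20 in CD11c-high cells.

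The point estimates mostly followed the order of the genes along the mitochondrial genome as annotated in GENCODE M21. All 6 members are on the same strand, with mt-Rnr2 before mt-Nd1, mt-Nd2, mt-Co1, mt-Nd4 and mt-Cytb, the last of them. In 12 of the 15 pairs of members the gene that comes later had the higher log2 fold change. The pairs come from only 6 values and are not independent. In 5 of the 12 the earlier gene is mt-Rnr2, the only member that fell. The order was not tested. The 3 exceptions were the pairs among mt-Nd2, mt-Co1 and mt-Nd4, whose values differed by at most 0.0043. Between mt-Co1 and mt-Nd4 lie 6 unlisted genes for mRNAs, and the mRNA gene of the other strand, mt-Nd6, is unlisted too, so the order rests on 6 of 15 rRNAs and mRNAs.

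Unshrunken differences between 2 transcripts of the same libraries do not depend on how whole libraries were scaled. The estimates used here are taken as shrunken gene by gene, so their differences may still depend on it. The error of such a difference depends on how the estimates vary together, which the tables do not give, but it cannot exceed the sum of their SDs, and that bound is used here. mt-Cytb exceeded mt-Rnr2 by 1.32 in log2 fold change (SD at most 0.33). By these shrunken estimates the ratio of the mRNA to the rRNA was 2.49-fold higher at ZT15 than at ZT3. mt-Nd2, mt-Co1 and mt-Nd4 each exceeded mt-Rnr2 by 0.92 (SD at most 0.32, 0.28 and 0.28 in that order). mt-Nd1 exceeded mt-Rnr2 by 0.60 (SD at most 0.27, 95% interval 0.07 to 1.13). These differences were set up after the values were seen, from the same fold changes that put the genes in the table, so they and their intervals describe the members and test nothing.

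Among the mRNAs the differences were smaller relative to their errors. mt-Cytb exceeded mt-Nd1 by 0.71 (95% interval 0.11 to 1.32), the widest gap of the 10 mRNA pairs. mt-Cytb exceeded mt-Co1 by 0.39 (95% interval -0.23 to 1.01), and mt-Co1 exceeded mt-Nd1 by 0.32 (95% interval -0.18 to 0.83). These intervals are descriptions as well. All these values come from estimates taken as shrunken, so unshrunken differences may be larger or smaller.

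**Figure D2:**
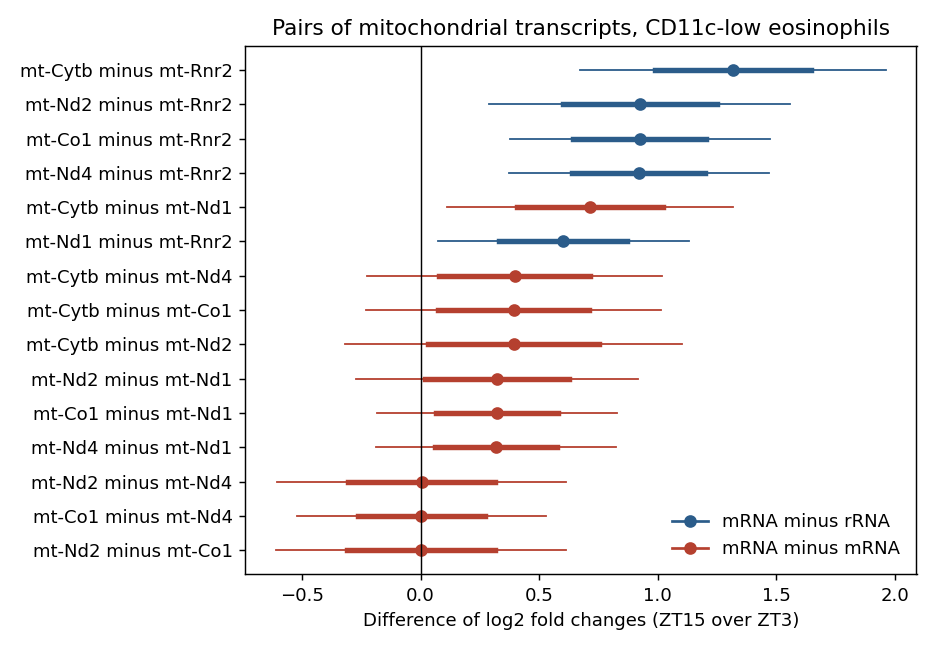
Difference of log2 fold changes (horizontal axis) for each of the 15 pairs of members in CD11c-low cells, the first-named gene minus the second; thick bars are ± the largest possible SD and thin bars ± 1.96 times that. The 5 pairs of an mRNA with mt-Rnr2 lie between 0.60 and 1.32 and the 10 pairs of mRNAs at 0.71 or below, with no test made.

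The listed members differed widely in level. The mean normalised count, which averages libraries of both times, was divided by the length of the annotated transcript to compare genes. In CD11c-low cells this level was highest for mt-Rnr2 at 15731 per kb, followed by mt-Nd1 at 12187 and mt-Cytb at 7490 per kb. mt-Co1 had 2909 per kb, mt-Nd2 had 1933 per kb and mt-Nd4 had 1438 per kb, so that mt-Nd1 stood 8.48-fold above mt-Nd4. The order of level was not the order of change, since mt-Nd1 had the highest level of the mRNAs and the smallest increase. No error can be given for these levels.

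Nuclear copies of mitochondrial DNA can take reads from the genes they derive from, and the sources used here do not say how such reads were treated. The share of the 31-base words of each transcript that also occurs in an annotated transcript of another gene, on either strand, was counted. It was 63.9% for mt-Co1 and 62.8% for mt-Nd4, against 13.5% for mt-Nd2, 6.55% for mt-Cytb, 2.71% for mt-Rnr2 and 0% for mt-Nd1. None of the genes that hold these copies is in either table. mt-Co1 and mt-Nd4, with the largest shares, were among the 3 members of lowest level per kb, and the part of the copies in those levels was not tested. The increases of mt-Co1 and mt-Nd4 are uncertain in the same respect. Copies outside annotated transcripts were not counted, so the shares may be too low for every member, mt-Nd1 included.

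**Figure D3:**
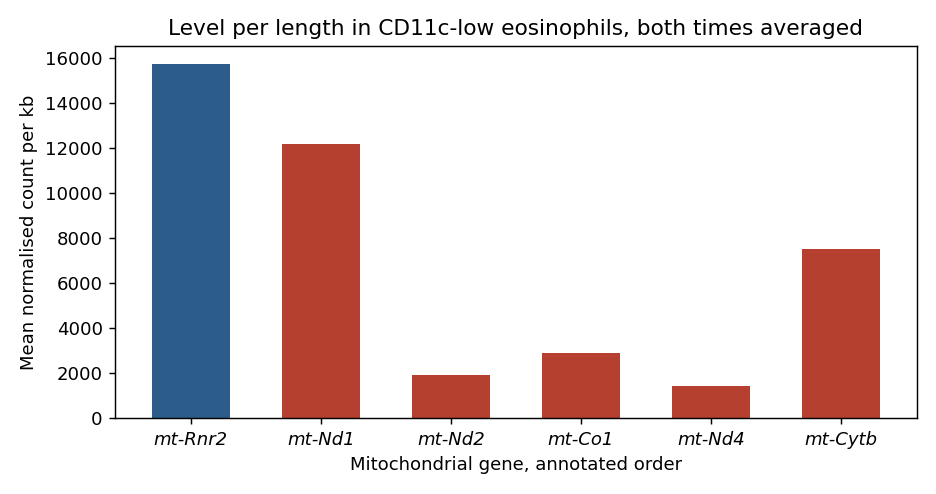
Mean normalised count per kb of annotated transcript (vertical axis, from 0) of the 6 members in CD11c-low cells, averaged by the authors over libraries of both times, with no error available. mt-Rnr2 (15731) and mt-Nd1 (12187) are the highest and mt-Nd4 (1438) the lowest.

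The members were among the abundant listed transcripts. In CD11c-low cells and the authors' deposited table, mt-Rnr2 had a mean normalised count of 24886, the 3rd highest of 1340 genes, and mt-Nd1 had 11663. Of the 50 listed genes nearest in level to each member, other members included, 30 to 34 were higher at ZT15. For comparison, 52.2% of all listed genes were higher. The share was 58.4% of those with 1000 or more mean normalised counts, immunoglobulin segments left out. The posterior SD of mt-Cytb, 0.18, was larger than the median of 0.135 among its 50 neighbours in level, and that of mt-Nd1, 0.12, was smaller than the median of 0.136 among its own. Among listed genes of 1000 or more mean normalised counts, immunoglobulin segments left out, the 142 that rose had a median log2 fold change of 0.30. All 5 mitochondrial mRNAs, which are among those genes, lay above that median, mt-Nd1 (0.34 ± 0.12) by less than its SD.

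**Figure D4:**
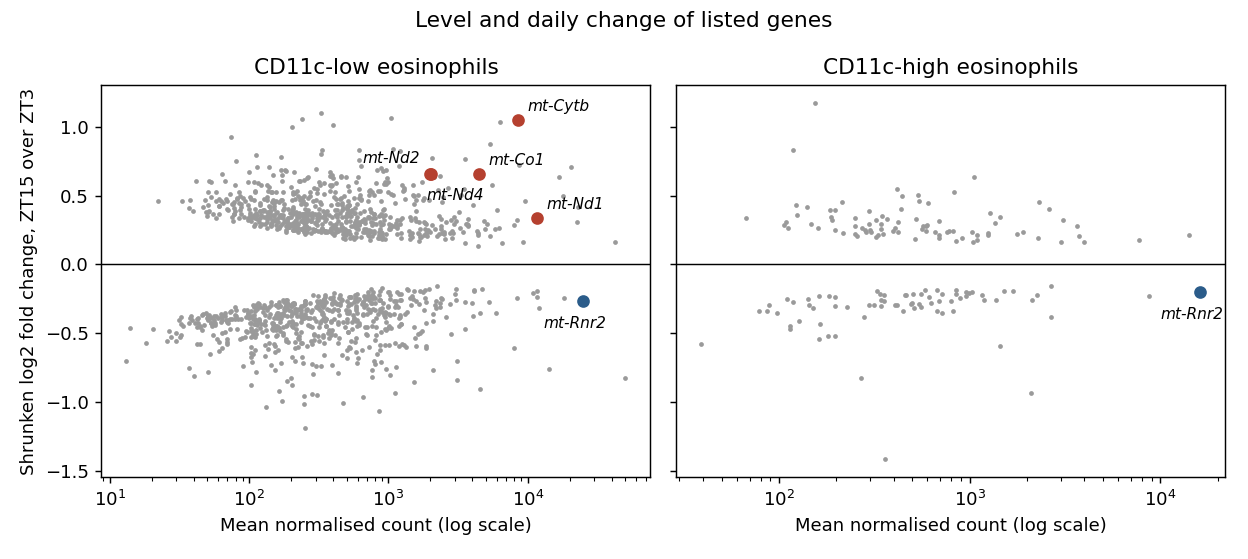
Shrunken log2 fold change, ZT15 over ZT3 (vertical axis), against the mean normalised count (horizontal axis, log scale) of listed genes in CD11c-low (left) and CD11c-high (right) cells, with immunoglobulin segments and the 5 and 2 other genes beyond 2 in log2 left out. mt-Cytb (1.05) lies at the upper edge in CD11c-low cells, and mt-Rnr2 is at the high end of level in both panels.

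In CD11c-high eosinophils mt-Rnr2 was the only mitochondrial transcript listed, and it fell at ZT15. Its log2 fold change was -0.20 ± 0.14 (s-value 0.0278) in the authors' deposited table, a fold of 0.868, and 45.9% of the 172 genes listed there were lower at ZT15. It had the highest mean normalised count of that table, 16209. After subtracting the median of the listed genes without immunoglobulin segments, the log2 fold change was -0.38. Its 95% interval before that, -0.48 to 0.07, reached past 0, and its own false sign rate was 0.0568. An s-value under 0.01 was met by 22.1% of the genes of that table and an own false sign rate under 0.05 by 45.3%, and mt-Rnr2 met neither. The 5 mRNAs are not in that table, so whether they changed in CD11c-high cells is not known here and no difference between the subsets can be drawn for them.

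The change of mt-Rnr2 could not be separated between the subsets at this precision. CD11c-low minus CD11c-high was -0.06 ± 0.20 in log2 fold change (95% interval -0.46 to 0.33), taking the subsets as independent. The size of this difference was smaller than the median of 0.17 over the 97 genes in both tables that are not immunoglobulin segments. The tables were normalised and shrunken separately, and the labels do not say whether the same mice gave both subsets.

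The nuclear genes of the respiratory chain were split in CD11c-low cells. Of 79 nuclear genes of complexes I to V, cytochrome c and complex II included, 19 were listed, 9 of them higher and 10 lower at ZT15, and the median log2 fold change was -0.17. Of all genes listed in CD11c-low cells, 52.2% were higher and 47.8% lower, which is near that split. The median over all listed genes without immunoglobulin segments was 0.21, and that of the 5 mitochondrial mRNAs was 0.66. These medians are of called genes only, so they measure no shift of a whole gene set. No nuclear gene of the chain was listed in CD11c-high cells. The lists of nuclear genes give no evidence of their own, since they were drawn up with earlier results of these data known.

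In complex I, where mt-Nd1, mt-Nd2 and mt-Nd4 rose, 7 of 36 nuclear genes were listed, 2 higher and 5 lower. The accessory subunit Ndufa1 had 0.36 ± 0.18 in the authors' deposited table. The accessory subunits Ndufb10 (-0.47 ± 0.25), Ndufb11 (-0.46 ± 0.22), Ndufv3 (-0.33 ± 0.21) and Ndufa2 (-0.27 ± 0.20) fell in the authors' deposited table. Ndufb10 and Ndufb11 belong to the same membrane arm as the products of mt-Nd2 and mt-Nd4, and so changed in the opposite direction to them.

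In complex III, to which mt-Cytb belongs, and its electron carrier cytochrome c, 4 of 10 nuclear genes were listed. The core subunit genes Uqcrc1 (0.35 ± 0.23) and Uqcrc2 (0.24 ± 0.18) and the cytochrome c gene Cycs (0.34 ± 0.27) rose, while the hinge subunit gene Uqcrh fell (-0.23 ± 0.16), in the authors' deposited table. None of these increases was as large as that of mt-Cytb. In complex IV, where mt-Co1 rose, 3 of 12 nuclear genes were listed, with Cox6a1 at 0.19 ± 0.15, Cox8a at -0.17 ± 0.13 and Ndufa4 at -0.20 ± 0.17 in the authors' deposited table.

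Complexes II and V had no listed mitochondrial gene. Complex II, which is wholly nuclear, had 2 of 4 genes listed, the iron-sulphur subunit gene Sdhb (0.37 ± 0.17) and the membrane anchor gene Sdhd (0.58 ± 0.29), both higher in the authors' deposited table. Of 17 nuclear genes of complex V, the ATP synthase, 3 were listed. The catalytic subunit gene Atp5b rose (0.50 ± 0.15), and the central stalk genes Atp5d (-0.27 ± 0.16) and Atp5e (-0.28 ± 0.21) fell in the authors' deposited table. Every complex other than II thus held listed nuclear genes of both directions. In complexes III and IV none of these genes had an own false sign rate under 0.05. The lowest rates there were 0.0562 for Uqcrc1 in complex III and 0.092 for Cox6a1 in complex IV.

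**Figure D5:**
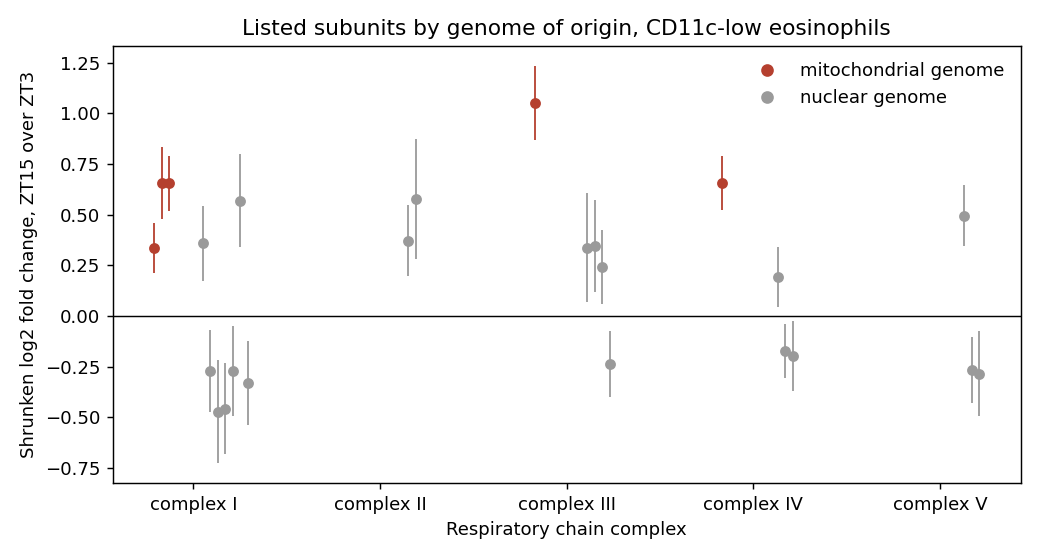
Shrunken log2 fold change, ZT15 over ZT3 (vertical axis), of each listed subunit gene in CD11c-low cells by complex (horizontal axis), mitochondrial genes in red to the left and nuclear genes in grey to the right; bars are ± 1 posterior SD. The 5 mitochondrial mRNAs of complexes I, III and IV lie above 0, and the 19 nuclear genes, cytochrome c under complex III, lie on both sides.

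Few genes that act on mitochondrial RNA were listed, and whether the others were tested or changed is not known here. Of 43 genes for transcription, processing, decay and translation factors of mitochondria, 2 were in the CD11c-low table. Grsf1, which encodes an RNA-binding protein of mitochondrial RNA granules, fell by 0.54 ± 0.35 in the authors' deposited table. Trmt10c, which encodes a subunit of the enzyme that cuts tRNAs out of mitochondrial precursors, rose by 0.37 ± 0.32 in the authors' deposited table. Both had low levels, with mean normalised counts of 58.8 for Grsf1 and 55.2 for Trmt10c in the authors' deposited table.

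Of 78 genes for proteins of the mitochondrial ribosome, in which mt-Rnr2 is the large rRNA, 3 were listed in CD11c-low cells. The large-subunit protein gene Mrpl45 rose (0.60 ± 0.27) and Mrpl37 (-0.44 ± 0.33) and Mrpl16 (-0.57 ± 0.33) fell in the authors' deposited table. In CD11c-high cells Mrpl20 was the only one listed, at -0.25 ± 0.22 in the authors' deposited table. Of 26 genes for mitochondrial biogenesis, dynamics and turnover, 3 were listed, all in CD11c-low cells. Sqstm1, an autophagy receptor, had 0.23 ± 0.14, Bnip3l, a mitophagy receptor, had -0.27 ± 0.18, and Esrra, a nuclear receptor for genes of energy metabolism, had -0.47 ± 0.30 in the authors' deposited table.

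Other abundant RNAs outside the mitochondrion also moved in CD11c-low cells. The nuclear RNA Malat1 had 0.63 ± 0.15 and the cytosolic rRNA gene Rn18s-rs5 had -0.76 ± 0.38 in the authors' deposited table. Rn18s-rs5 and mt-Rnr2 were thus both lower at ZT15. As polyadenylated RNA was sequenced, neither value is that of total rRNA, and a shared fall of rRNA was not tested. Of 77 cytosolic ribosomal protein genes, 48 were listed in CD11c-low cells, 3 higher and 45 lower, with a median log2 fold change of -0.35. For comparison, 47.8% of all genes listed there were lower. Examples are Rps12 (-0.94 ± 0.23), Rps21 (-0.72 ± 0.20) and Rpl12 (-0.71 ± 0.21), which fell, and Rpl7a (0.23 ± 0.17) and Rpl3 (0.26 ± 0.18), which rose, in the authors' deposited table. RNA quality and the depth of each library are not known from the tables, and their part in the mitochondrial values was not tested.

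Markers were checked as far as the tables list them. In CD11c-low cells 6 of 16 eosinophil markers were listed, with mean normalised counts between 1227 and 4887. Of these, 4 were higher at ZT15, among them Siglecf (0.23) and Alox15 (0.26), and 2 were lower, Adgre1 (-0.29) and Adgre4 (-0.21). Ccr3, Il5ra, Epx and Prg2 were not listed, so their levels were not analysed here. None of the 16 was listed in CD11c-high cells, where the cell type therefore rests on the labels. Of 57 markers of plasma and B cells, T and NK cells, epithelium, macrophages and dendritic cells, and mast cells and neutrophils, 8 were listed in CD11c-low cells, 6 higher and 2 lower. Of all genes listed there, 52.2% were higher. Among the higher was the T and NK cell marker Gzma, at 20.99 ± 3.33 in log2 with a mean normalised count of only 30.4. The others lay between -0.49 (Cd74) and 0.58 (Hdc) in the authors' deposited comparison. Their mean normalised counts lay between 143 (Cd68) and 1145 (Bank1), the latter close to the lowest of the listed eosinophil markers. In CD11c-high cells 1 of the 57 was listed, and it was higher. In addition 14 immunoglobulin segments were listed in CD11c-low cells, 8 higher and 6 lower, and 9 in CD11c-high cells, 7 higher and 2 lower. The part of other cells in the mitochondrial values was not tested.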

How the data were processed

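RNA of 16 libraries in 4 groups of 4 was compared by the authors, ZT15 against ZT3, in 1 table per CD11c subset. STAR 2.7.10b, DESeq2 1.38.3 and the build GRCm39 are named, with no step assigned to them, per the submitters' processing notes. Which counting step, annotation and shrinkage method were used is not given in these sources. Per the file headers, the authors deposited for each gene a mean normalised count (a signal: counts divided by size factors, averaged over libraries), a log2 fold change, its error and an s-value. The deposited log2 fold changes are taken as shrunken, with posterior SDs as errors, because s-values go with such estimates. The deposited s-value is comparable to a q-value for the sign and is not a p-value. All lie below 0.05 and the number of genes tested is not known here. Direction was taken from the tables' names. The depth of each library is unknown.

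The members and gene lists were chosen with earlier results of these data known. Each gene's own false sign rate was recovered from successive s-values, a step tested on simulated data. Intervals are ± 1.96 SD. Differences, levels per kb, shared 31-base words and counts over lists were computed with Python 3.11.15, pandas 2.3.3 and NumPy 2.4.6. Genes named were all members, all listed genes of lists with at most 6, otherwise the 3 highest and 3 lowest, and all listed nuclear noncoding RNAs; markers were counted. A few genes under this rule are not reported here. List sizes are symbols found in GENCODE M21 (build GRCm38) or the tables. That annotation gave lengths, gene order and sequences, and no coordinates are printed since its build is another one. Alternatives were stricter thresholds, a minimum level and other centrings.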

Additional observations from a re-analysis of the deposited data

How the results depend on the processing

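The 5 mitochondrial mRNAs stayed called higher in CD11c-low cells at an s-value under 0.01, at an own false sign rate under 0.05 and where genes under a mean normalised count of 50 were left out. The calls of mt-Rnr2 were weaker. At an s-value under 0.01 the number of members called lower was 0 in CD11c-low and 0 in CD11c-high cells, against 1 in each as reported. At an own false sign rate under 0.05 it was 1 in CD11c-low and 0 in CD11c-high cells. The tables hold s-values of DESeq2-type output only, so no count at an unadjusted p can be given. The calls were lost by construction, since the s-values were 0.0107 in CD11c-low and 0.0278 in CD11c-high cells and the own false sign rate in CD11c-high cells was 0.0568. Subtracting the median of the listed genes without immunoglobulin segments (0.21 in CD11c-low, 0.18 in CD11c-high) or that of the listed nuclear genes of complexes I to V (-0.17) reversed no member. The smallest values then were 0.13 for mt-Nd1 under the first and -0.09 for mt-Rnr2 under the second in CD11c-low cells. These medians are of called genes only, so they do not measure an offset between libraries. Keeping the sign under them is therefore no test of how the libraries were scaled. The difference of mt-Rnr2 between subsets became -0.09 with each table's median subtracted. Setting each mRNA against mt-Rnr2 was chosen after seeing the data.

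No paired analysis was possible because no column of the tables belongs to a library, so the labels' replicate numbers went unused and no library was left out. Without depths or values per library, no counting interval or group mean can be given for any gene.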

Other observations

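The 6 members are poor in G and C. Their annotated transcripts have a GC content between 35.4% (mt-Rnr2) and 39.9% (mt-Co1), against a median of 49.2% over the 1286 of 1326 genes of the CD11c-low table with a match, immunoglobulin segments left out. Of the other 52 listed genes with a GC content under 40%, 9 were higher and 43 lower at ZT15, with a median log2 fold change of -0.34. Of all genes listed in CD11c-low cells, 47.8% were lower. mt-Rnr2, the member of lowest GC content, fell too, while the 5 mRNAs rose. Of these mRNAs, mt-Nd4 (35.6%) and mt-Nd2 (35.7%) had nearly the same GC content as mt-Rnr2. In CD11c-high cells 1 of 6 such genes was higher and 5 were lower, where 45.9% of all listed genes were lower. These are counts of listed genes with no test, and the part of GC content in the mitochondrial values was not tested.

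The longest run of A inside the transcript was 5 bases in mt-Cytb, 6 in mt-Nd1, 7 in mt-Rnr2, mt-Co1 and mt-Nd4 and 8 in mt-Nd2. Its part in the values was not tested.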
